A study of Mus musculus with 2 samples.

Results

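The interferon regulatory factors are a family of transcription factors, and 8 of their genes, Irf1, Irf2, Irf3, Irf4, Irf5, Irf7, Irf8 and Irf9, are described here in naive and activated mouse CD8+ T cells. A probe set, the group of short probes that reports 1 transcript on the array, was taken when the platform annotation named 1 of these genes and no other gene. This gave 14 of the 45037 probe sets other than controls, for 8 of the 18193 genes with a probe set of their own. The naive RNA came from purified CD8+ T cells of pmel-1 T cell receptor transgenic mice, and the activated RNA from proliferating CD8+ T cells of the same strain 72 h after activation. All cells of both groups thus come from animals with a transgenic receptor of a single specificity, and neither the stimulus nor the animals' age or the organ of origin is stated in the labels used here. Each group is 1 RNA pool of 4 independent experiments on 1 array, so the spread between experiments cannot be seen, and no difference below has a replicate error or a p-value.

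Interferon regulatory factors bind DNA through a shared amino-terminal domain built around conserved tryptophans, which reads GAAA repeats in interferon-stimulated response elements. Irf3, Irf5 and Irf7 are switched on by phosphorylation after pattern recognition receptors sense nucleic acids or microbial products, Irf9 is the DNA-binding part of the complex ISGF3 that carries the type I interferon signal, and Irf1 is induced by interferon gamma. Irf4 and Irf8 bind DNA weakly alone and act with partners such as PU.1 or BATF-JUN dimers. In CD8 T cells Irf4 is known as a factor induced through the T cell receptor that sustains clonal expansion and effector differentiation.

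Of the 8 genes, 5 were lower and 2 were higher in activated cells, and Irf5 was under the level of comparison on both arrays. Irf4 stood apart with a value at least 14.7-fold higher, Irf8 was 1.72-fold higher, and Irf7, Irf1, Irf9, Irf2 and Irf3 were lower by 4.19-fold, 3.52-fold, 2.78-fold, 1.82-fold and 1.69-fold, each by the brightest of its probe sets (the highest mean of the 2 values). Called higher or lower here means a ratio of at least 1.4 after raising values under 100 to 100, together with a difference of more than 100 between the deposited intensities. A gene is called measured when its value reached 100 on at least 1 array. The same rule called 12.8% of all 18193 genes higher and 11.1% lower (24% in either direction), or 23.7% and 20.6% of the 9842 measured genes (44.3% in either direction). The median log2 ratio of the 7 measured members was -0.86, against 0.01 over all measured genes, and it lies among members of both signs. In pooled bulk RNA, fewer cells of a type and less RNA per cell cannot be told apart.

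**Figure D1:**
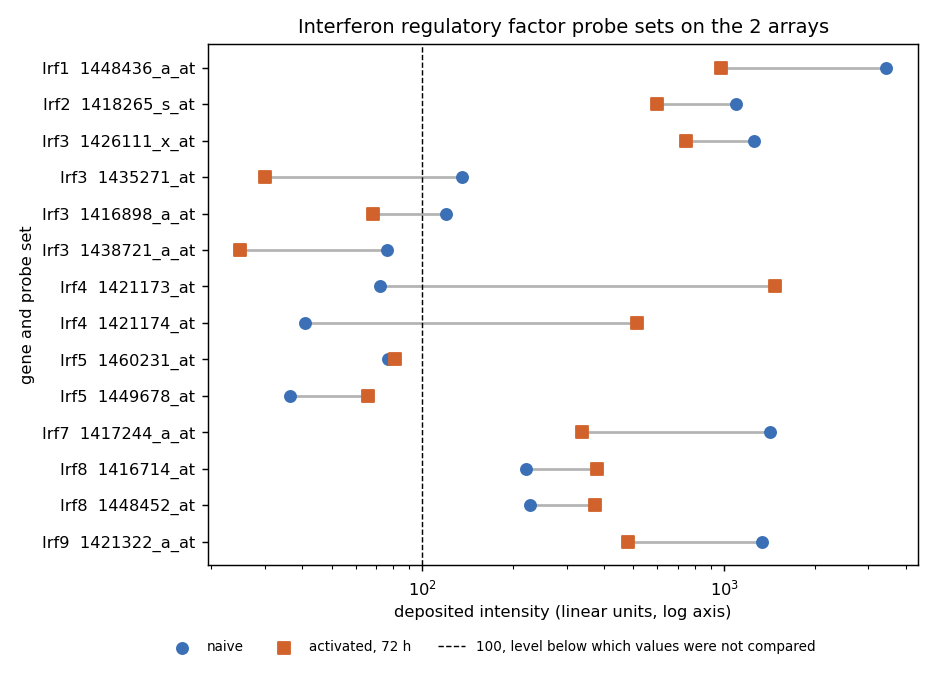
Deposited intensity (log axis) of the 14 probe sets of the family on the naive array (circles) and the activated array (squares), with a dashed line at 100. Both Irf4 probe sets cross the line from left to right, the probe sets of Irf1, Irf2, Irf7 and Irf9 lie lower in activated cells with both values above the line, and both Irf5 probe sets stay under it.

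The arrays carried the transcripts that define a CD8 T cell at high values on both sides, and all 8 markers fixed for that cell type were measured. Cd8a was at 6020 on the naive and 4860.0 on the activated array and Cd3e at 3035 and 2724, neither past the rule applied here by the brightest probe set, while Cd4 was at 45.1 and 50.5. Of the 5 probe sets of Cd8a, 4 were called lower, with log2 ratios of all 5 from -1.39 to -0.31. Past the rule were Cd8b1 (7725 and 3554, 2.17-fold lower), Cd2 (1.58-fold lower) and Lat (1.84-fold lower). Over all probe sets the median intensity was 56.2 and 52.3, and 9 probe sets for spiked-in control transcripts above 100 gave log2 ratios from -0.33 to 0.13. Between probe sets of a shared gene the log2 ratios had a standard deviation of 0.39 (3404 genes with several probe sets above 100 on both arrays). Neither value includes the spread between cell cultures.

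Irf4, the family member induced by the T cell receptor, was low on the naive array by both of its probe sets. The brighter one, 1421173_at, had an intensity of 72.4 on the naive and 1469 on the activated array. The other, 1421174_at, was at 40.9 and 512.5. Both naive values lay under 100 and both activated values well above it, so that only lower bounds of the ratio can be given, at least 14.7-fold and at least 5.125-fold. The size of this bound follows the floor that is chosen. With values raised to 50 in place of 100 the brighter probe set gave 20.3-fold, and with values raised to 200 at least 7.34-fold, and all 3 floors left both probe sets called higher.

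Irf8, the closest relative of Irf4 and best known from B cells and dendritic cells, was also higher, by a smaller ratio. Its probe set 1416714_at was at 221 and 379.7 (1.72-fold higher), and 1448452_at at 227 and 371 (1.64-fold higher). The pair differed by far less than the spread found between probe sets of other genes, and both are annotated to the same sequence record. The ratio of Irf4 exceeded that of Irf8 by at least 3.09 on the log2 scale. Irf8 lost its call with a fold minimum of 2 and with a difference minimum of 200. Of the 8395 genes above 100 on both arrays, 15.1% had a higher ratio than Irf8.

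Irf7, an interferon-induced activator of interferon and antiviral genes, had the lowest ratio of the family. Its only probe set, 1417244_a_at, read 1415 on the naive and 338 on the activated array (4.19-fold lower). Irf9, the DNA-binding subunit of ISGF3, was at 1333 and 479 (2.78-fold lower) by its only probe set, 1421322_a_at. Both genes thus had clear signal on both arrays and lay in the lower tail of the genes above 100 on both. Genes under 100 on either array were not ranked. Only 1.17% of the 8395 genes above 100 on both arrays had a lower ratio than Irf7, and 3.23% a lower ratio than Irf9. The log2 ratio of Irf7 minus that of Irf9 was -0.59, which is 1 probe set against 1 and was not tested.

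Irf1 and Irf2, which compete for the same DNA element with Irf1 known mainly as an activator and Irf2 as a repressor, were both lower. Irf1 was at 3436 and 977 (3.52-fold lower, probe set 1448436_a_at), and 1.60% of the genes above 100 on both arrays had a lower ratio. Irf2 was at 1091 and 600.3 (1.82-fold lower, probe set 1418265_s_at), with 11.3% of those genes lower. The log2 ratio of Irf1 minus that of Irf2 was -0.95, and Irf2 lost its call with a fold minimum of 2.

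Irf3, the factor phosphorylated downstream of nucleic acid sensors, rested on 4 probe sets of very unequal brightness. The brightest, 1426111_x_at, was at 1257 and 745 (1.69-fold lower). The others were at 135 and 30.1 (1435271_at), at 119.9 and 68.4 (1416898_a_at) and at 76.1 and 24.9 (1438721_a_at). All 4 had the lower value in activated cells, but only the brightest passed the rule. 1435271_at missed it narrowly, with a difference above 100 and a ratio of at least 1.35. With the mean over its 3 measured probe sets in place of the brightest, Irf3 had a log2 ratio of -0.48 and was not called. That mean follows the floor, because the ratios of 1435271_at and 1416898_a_at in it are only bounds of the fall. With values raised to 50 in place of 100, 1435271_at had a log2 ratio of -1.43 or lower and was called lower. At that floor 1416898_a_at had -0.81 and was not called.

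Irf5, known as an inflammatory factor of macrophages, dendritic cells and B cells, could not be compared. Its probe sets were at 76.8 and 80.8 (1460231_at) and at 36.5 and 66.2 (1449678_at), all of them under 100. No ratio was formed, and its absence from these cells cannot be stated from values at this level.

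**Figure D2:**
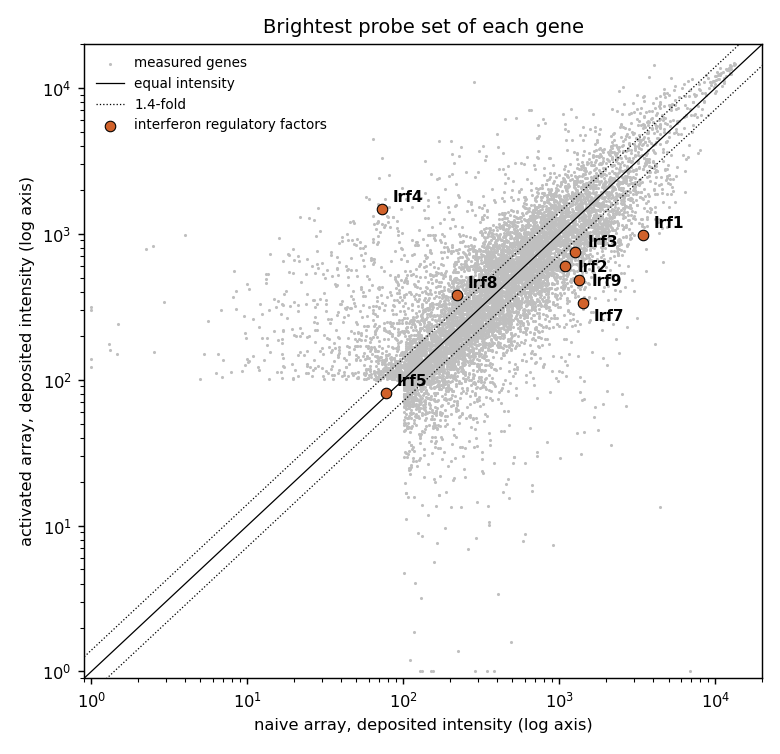
Intensity on the activated array against the naive array for the brightest probe set of each gene, on log axes, with the 9842 measured genes in grey and the 8 family members as labelled circles. The solid line marks equal intensity and the dotted lines 1.4-fold, and Irf4 lies far above the line, Irf8 just above it, Irf5 under 100 on both axes, and the other 5 members below it.

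Counted by probe set, 4 of the family's 14 were higher and 5 lower, 2 measured ones did not pass the rule, and 3 were under 100 on both arrays. Over all 45037 probe sets 9.38% were higher and 8.23% lower (17.6% in either direction), and over the 19250 measured ones 21.9% and 19.3% (41.2% in either direction). The direction of the family's calls ran with the class of probe set. All 5 lower calls came from the 7 probe sets whose names end in _a_at, _s_at or _x_at, which mark probes shared by several transcripts or open to cross-hybridisation, and all 4 higher calls from the other 7. Over the whole array, measured probe sets of those classes were lower in 16.5% and higher in 27.9% of cases, against 20.4% and 19.4% for the others. Irf1, Irf2, Irf7 and Irf9 have a single probe set each, so leaving out those classes left no lower call in the family, and the part of probe design in these calls was not tested.

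Promoters were examined for the members because several had ratios of the same direction. The RefSeq table of assembly GRCm38.p6 held 11 promoters for the 8 genes, each running from 250 bases before to 50 after a start site. They were searched on both strands for the core of the interferon-stimulated response element (GAAA, any 2 bases, GAAA), for TTCNNNGAA, the gamma-activated sequence bound by STAT dimers, for TGANTCA, the AP-1 element, and for an NF-kappaB element (GGGA, any 4 bases, CC). The gamma-activated sequence is palindromic in its fixed letters and was counted once per position. The stretches before the start site are shown for the genes with a match, in lower case with the matches in capitals, because they place these elements in a lower pair (Irf1 and Irf2) and in the higher pair (Irf4 and Irf8).
Irf1: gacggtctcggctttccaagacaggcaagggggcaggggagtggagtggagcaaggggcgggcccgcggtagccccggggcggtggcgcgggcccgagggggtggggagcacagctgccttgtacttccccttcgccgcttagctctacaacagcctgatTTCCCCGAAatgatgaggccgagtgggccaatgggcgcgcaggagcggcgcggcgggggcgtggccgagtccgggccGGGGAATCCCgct
Irf2: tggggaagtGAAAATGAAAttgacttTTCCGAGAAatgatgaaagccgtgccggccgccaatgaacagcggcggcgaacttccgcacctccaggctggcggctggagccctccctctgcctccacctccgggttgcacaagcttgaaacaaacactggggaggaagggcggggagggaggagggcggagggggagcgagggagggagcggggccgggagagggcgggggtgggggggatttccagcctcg
Irf4: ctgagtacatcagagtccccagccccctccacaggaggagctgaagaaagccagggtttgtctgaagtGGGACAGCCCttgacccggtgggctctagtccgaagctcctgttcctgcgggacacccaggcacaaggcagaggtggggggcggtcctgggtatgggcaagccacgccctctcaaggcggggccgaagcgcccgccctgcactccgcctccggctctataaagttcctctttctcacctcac
Irf8: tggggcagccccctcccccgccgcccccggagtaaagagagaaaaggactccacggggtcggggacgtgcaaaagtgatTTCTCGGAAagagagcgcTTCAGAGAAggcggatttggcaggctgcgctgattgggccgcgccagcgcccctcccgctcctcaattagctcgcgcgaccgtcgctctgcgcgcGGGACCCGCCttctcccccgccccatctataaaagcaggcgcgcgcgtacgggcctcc

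The Irf1 stretch (chr11:53769764-53770013, plus strand) held a gamma-activated sequence, TTCCCCGAA, beginning 90 bases before the start site, and an NF-kappaB element on the other strand, read here as GGGGAATCCC and beginning 13 bases before it. The Irf2 stretch (chr8:46739495-46739744, plus strand) held the only interferon-stimulated response element among the members, GAAAATGAAA, 241 bases before the start, with a gamma-activated sequence, TTCCGAGAA, 224 bases before it. The Irf4 stretch (chr13:30748983-30749232, plus strand) held an NF-kappaB element, GGGACAGCCC, 182 bases before the start and no other match. The Irf8 stretch (chr8:120736108-120736357, plus strand) held gamma-activated sequences at 171 and 153 bases and an NF-kappaB element at 58 bases before the start, and a further NF-kappaB element lay 10 bases after it. None of the matches overlapped another. The promoters of Irf3, Irf5, Irf7 and Irf9 and the second promoters of Irf1 and Irf8 held none of the 4 elements, and no member promoter held the AP-1 element. Of all 32851 promoters in the table, 3.44% held the response element, 8.30% the gamma-activated sequence, 7.81% the AP-1 element and 20.7% the NF-kappaB element. A match describes letters only, and matches lay in members of both directions.

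Genes around the family were grouped by role in 8 further lists, with 14 of 100 measured genes higher and 52 lower in their union and a median log2 ratio of -0.55. Here 23.7% of all measured genes were higher and 20.6% lower. The union therefore held more lower than higher genes, as the family did, and the lists differed among themselves. The ISGF3 targets alone gave 18 of the 52 lower genes. Like the family, the lists were chosen with earlier results of these data known, so the likeness is only a description.

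The proteins that bind DNA beside the family gave 2 higher and 4 lower genes among 12 measured, with a median log2 ratio of -0.38. Both higher ones were BATF factors, the partners of Irf4 and Irf8 on composite AP-1 elements. Batf3 was at 92.4 and 987 (at least 9.87-fold higher) and Batf at 441 and 662 (1.501-fold higher). Batf lost its call with a fold minimum of 2. Batf2 was under 100 on both arrays. The JUN proteins that pair with them did not move together. Jun was at 319 and 116 (2.74-fold lower), although its second probe set gave a log2 ratio of 0.21 and the mean over both was not called, while Junb (2032 and 1911) and Jund (3645 and 4877) did not pass.

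The Ets-family partners, known chiefly from B cells and myeloid cells, were lower or low. Spib was at 934 and 389 (2.40-fold lower) and Spi1, which encodes PU.1, at 114 and 71.7, which did not pass. The coactivator Crebbp was 1.99-fold lower, and Ep300 (1408 and 1068) did not pass. Stat2, a subunit of ISGF3 with Irf9, was at 191.5 and 130.6 and did not pass by its brightest probe set. Nfatc1 was 1.77-fold lower by its brightest probe set, but the log2 ratios of its 4 measured probe sets ran from -0.82 to 1.51 and their mean was positive. Nfatc2 was at 971.5 and 759.5 and did not pass.

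Factors listed here as possible inputs from the T cell receptor to Irf4 gave 1 higher and 3 lower genes of 7 measured, with a median log2 ratio of -0.36. Rel, the NF-kappaB subunit most tied to antigen receptor signalling, was at 75.1 and 245.5 (at least 2.46-fold higher), and it lost this call when the difference minimum or the floor was set to 200. Rela (1821 and 1184, 1.54-fold lower) and Relb (292 and 151, 1.93-fold lower) were lower. Both lost the call with a fold minimum of 2, and Relb also with a difference minimum of 200. The third lower gene was Nfatc1, described above. Nfkb2 was at 320 and 261 by its brightest probe set, with another at a log2 ratio of 1.03, and the growth kinase gene Mtor was at 434.2 and 433.7.

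Genes reported in the literature as bound or controlled by Irf4 in T cells were split, with 7 higher and 6 lower of 15 measured and a median log2 ratio of 0.44. Many of them belong to the general programme of activation, so the list is not specific to Irf4. The highest ratios belonged to Gzmb, encoding granzyme B (282 and 10896, 38.6-fold higher), the hexokinase gene Hk2 (69.0 and 1210.1, at least 12.1-fold), the zinc finger gene Zbtb32 (47.1 and 906, at least 9.06-fold) and the glucose transporter gene Slc2a1 (728 and 1897, 2.61-fold). Tbx21, encoding T-bet, was at 333 and 764 (2.30-fold higher), and Prdm1, encoding Blimp-1, at 70.2 and 135.8, which did not pass. The lower members were led by Eomes, a factor of memory and effector cells (725 and 215, 3.37-fold lower), Foxo1, a factor of quiescence (2987 and 983.5, 3.04-fold), Bcl6, a repressor that opposes Blimp-1 (302 and 97.7, at least 3.02-fold), and the Ikaros family gene Ikzf3 (942 and 490, 1.92-fold).

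Sensors and kinases upstream of Irf3, Irf5 and Irf7 gave 1 higher and 5 lower genes of 13 measured, with a median log2 ratio of -0.27. Ikbke, one of the kinases that phosphorylate Irf3 and Irf7, was at 1176 and 256 (4.60-fold lower). Its partner kinase gene Tbk1 was at 1789 and 1205 (1.48-fold lower) and the adaptor gene Azi2 at 1054 and 648 (1.63-fold lower). Tbk1 and Azi2 lost their calls with a fold minimum of 2. The RNA sensors went opposite ways. Ddx58, encoding RIG-I, was at 1363 and 418 (3.26-fold lower), and Ifih1, encoding MDA5, at 337 and 492 (1.46-fold higher), a call that was lost with a difference minimum of 200 or quantile normalization. The adaptor gene Myd88 was at 735 and 752 and did not pass. Tlr3, Tlr4, Tlr7 and Tlr9 were under 100 on both arrays.

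Interferon receptors and their kinases were lower while the gene for interferon gamma itself was higher. Of 9 measured genes of this list 1 was higher and 7 were lower, with a median log2 ratio of -0.71. Ifng was at 72.8 and 3282 (at least 32.8-fold higher), and Ifnb1 and Ifna4 were under 100 on both arrays. The type I receptor chains Ifnar1 (835 and 484, 1.72-fold) and Ifnar2 (675 and 464.5, 1.45-fold) were lower, as were the interferon gamma receptor chains Ifngr1 (1820 and 912.5, 1.99-fold) and Ifngr2 (157 and 21.0, at least 1.57-fold). Both receptors thus had lower values for each of their chains. The kinase genes Jak1 (4257 and 1210.1, 3.52-fold), Jak2 (1468 and 771, 1.90-fold) and Tyk2 (358 and 219, 1.63-fold) were lower as well. With a fold minimum of 2 only Jak1 of these 7 genes was still called lower. Ifngr2 also lost its call with a difference minimum of 200, and with a floor of 200, which it reached on neither array. Tyk2 lost its call with that difference minimum or the mean over probe sets.

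Targets of ISGF3, the complex that contains Irf9, had the lowest median of the lists, with 18 of 24 measured genes lower, none higher and a log2 ratio of -1.13 at the median. Usp18, which switches off the type I receptor, was at 975 and 97.5 (at least 9.75-fold lower) and Ifit3, which binds the antiviral machinery, at 1032 and 113 (9.13-fold). Ifit1, which binds foreign RNA caps, was at 719 and 31.9 (at least 7.19-fold) and Rtp4 at 2060 and 441 (4.67-fold). Members that did not pass included Bst2 (569 and 675) and Eif2ak2 (211 and 286), which had the higher value in activated cells. The list and Irf7 itself, also an ISGF3 target, had the same sign on these arrays.

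Targets of Irf1 and of interferon gamma were less uniform, with 2 higher and 9 lower of 20 measured genes and a median log2 ratio of -0.47. Among genes above 100 on both arrays the lowest ratios belonged to Irgm2 (1090 and 443, 2.46-fold lower), Nlrc5, the activator of class I presentation genes (2084 and 903, 2.31-fold), the immunoproteasome gene Psmb10 (2207 and 1065, 2.07-fold) and Irgm1 (1882.5 and 956.5, 1.97-fold). The higher genes were Il12rb1, a receptor chain for interleukin-12 (119 and 358, 3.002-fold), and the guanylate-binding protein gene Gbp3 (503 and 723, 1.44-fold). Gbp3 lost its call with a fold minimum of 2 and under quantile and loess scaling. Psmb8 (3468 and 3312), Psmb9 (2214 and 1987) and B2m (10479 and 11471) did not pass. Cxcl10 was at 131.8 and 13.9 and did not pass, although a floor of 50 called it lower. Ciita and Cxcl9 were under 100 on both arrays.

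Proteins that bind Irf2 and repress with it were also listed. Irf2bpl was at 1526 and 458 (3.33-fold lower), Irf2bp2 at 1216 and 880.4 and Irf2bp1 at 370.1 and 279, of which only the first passed the rule by the brightest probe set. Irf2bp2 was also called lower under quantile and loess scaling and by the mean over its probe sets. The log2 ratios of the 4 Irf2bp2 probe sets ran from -1.20 to -0.47, and none of the measured probe sets of these genes had a higher value in activated cells.

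**Figure D3:**
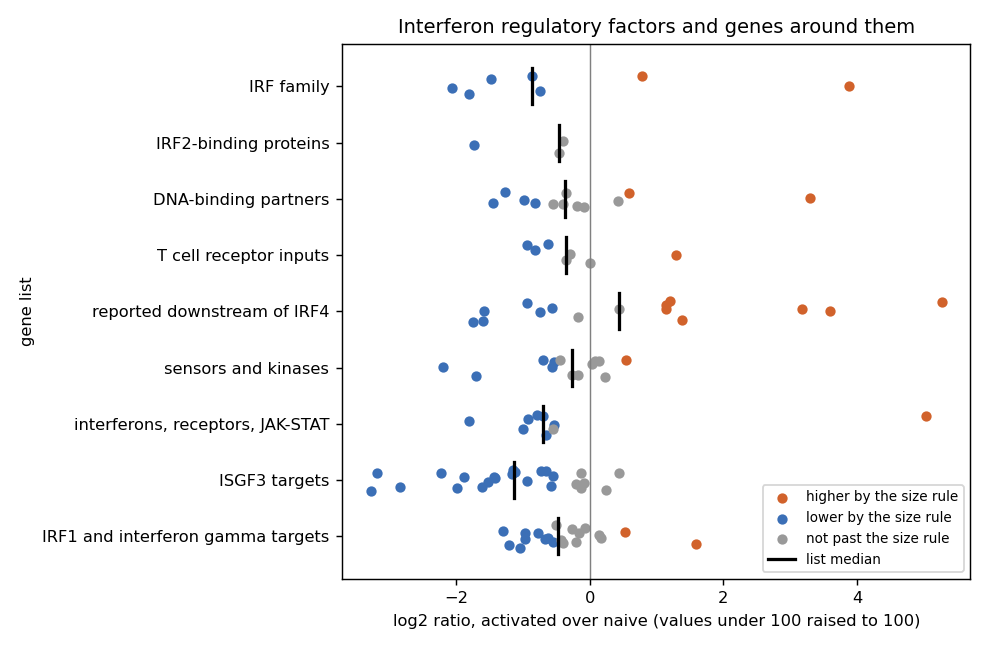
Log2 ratio of activated over naive intensity, with values under 100 raised to 100, for each measured gene of the family and of the 8 lists around it, where each point is a gene and the black bar is the list median. ISGF3 targets lie furthest to the left (median -1.13), the genes reported downstream of Irf4 spread to both sides (median 0.44), and Ifng is the far right point of its list.

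Among all genes of these lists, the ones with the nearest log2 ratio to each member were taken as a measure of likeness over the 2 arrays, which is a comparison of single ratios. For Irf4 no nearest gene is given, because its ratio and those of the genes beside it are lower bounds that follow the floor. For Irf8 (0.78) they were Batf (0.59) and Ifih1 (0.54). Irf1 (-1.81) lay nearest to Jak1 (-1.81) and Eomes (-1.75). Irf7 (-2.07) lay nearest to Oas1a (-1.99) and Ikbke (-2.20), and Irf9 (-1.48) to Jun (-1.46) and Isg20 (-1.44). Those nearest to Irf2 (-0.86) were Nfatc1 (-0.82) and Jak2 (-0.93), and to Irf3 (-0.75) Id2 (-0.75) and Cd274 (-0.77). Nfatc1 and Jun enter here by their brightest probe set alone, and other probe sets of theirs reached 1.51 and 0.21.

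Markers of other cells were examined because Irf4, Irf5, Irf7 and Irf8 are also expressed by B cells, plasma cells or dendritic cells. Of 9 B cell markers 4 were measured and 2 were lower, Cd79b (293 and 40.04, at least 2.93-fold) and Cd22 (397 and 261, 1.52-fold), and the summed level of the 9 was 1230 on the naive and 583 on the activated array. Pax5, Blnk, Cr2, Fcer2a and Ebf1 were under 100 on both arrays. The part of B cells in the Irf8 values was not tested. Among plasma cell markers Jchain was at 1768 and 45.2 (at least 17.7-fold lower), Mzb1 at 466 and 254 (1.84-fold lower), Sdc1 at 63.5 and 301 (at least 3.01-fold higher) and Tnfrsf17 at 25.7 and 31.1, with a sum of 2323 and 631.

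Markers of dendritic cells were under 100 on both arrays for most genes. Of 6 for conventional dendritic cells only Itgax reached 100 (114.7 and 27.6), with a sum of 330 and 206. Of 5 for plasmacytoid dendritic cells 3 were measured, and Spib (934 and 389) was the only one lower and made up most of the list's sum, with Siglech at 44.2 and 32.8 and a sum of 1270 and 619. Of 9 monocyte and macrophage markers 3 were measured and 2 were lower, Csf1r (642 and 345, 1.86-fold) and Lyz2 (173 and 21.8, at least 1.73-fold), with a sum of 1300.4 and 878. Of 3 NK cell markers 2 were lower, Klre1 (397 and 214, 1.85-fold) and Klra8 (242 and 29.9, at least 2.42-fold), with a sum of 693.5 and 272. Of the 3 markers of CD4 T cells none passed, and their sum was 226 and 202. These sums were lower on the activated array, as were that of the 8 CD8 T cell markers (39105 and 28386) and Irf1, Irf2, Irf3, Irf7 and Irf9, and the part of other cells in those values was not tested. No marker of these lists was at the lowest deposited value of 1.

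**Figure D4:**
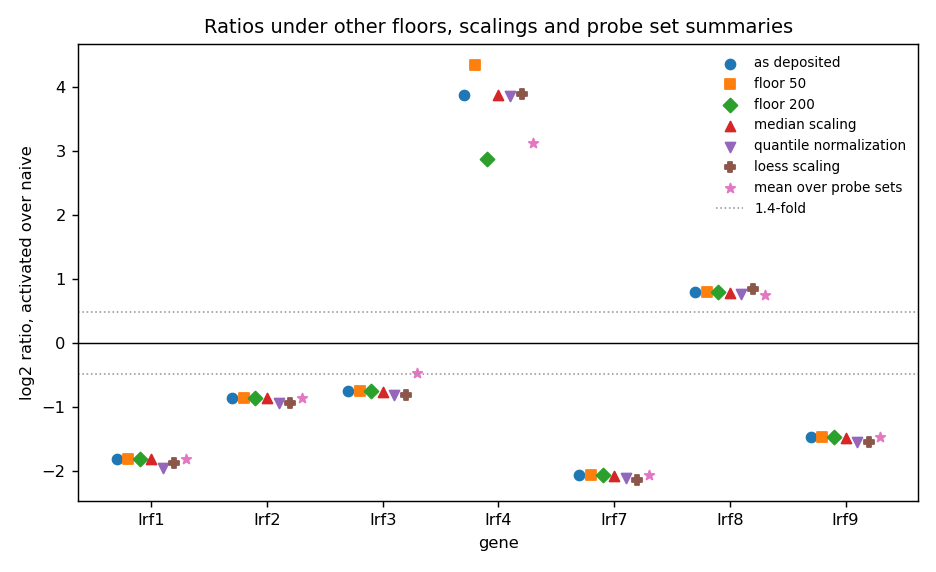
Log2 ratio of activated over naive intensity for the 7 measured members as deposited and under other floors, scalings and the mean over probe sets, with 0 as a solid line and 1.4-fold as dotted lines. No member changes sign, Irf4 ranges from 2.88 to 4.34, and Irf3 comes inside the 1.4-fold line with the mean over probe sets.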

How the data were processed

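Transcripts were measured on 2 whole-genome mouse arrays of Affymetrix. For every probe set the authors deposited 1 linear intensity. Per the series' design text, dChip (version not stated) computed it from perfect-match minus mismatch probes and normalized the arrays on an invariant set. GCOS 1.3 made present calls, as the design text and the submitters' processing notes record. Those calls and the study's 90% confidence bounds of the fold did not enter the analysis, and the size rule (fold minimum 1.4, difference above 100, floor 100) keeps only what the intensities allow. Subtracted values near background carry little information.

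The table held 45101 probe sets, 64 of them controls. Of the others 34945 had 1 gene symbol in the platform annotation, 932 several and 9160 none, and only the first kind named genes. Symbols of list members were also looked up as synonyms in the RefSeq table. A gene's value is that of its brightest probe set, judged by the mean of both arrays. Apart from choosing the brightest probe set and adding up marker levels, levels of different probe sets were not compared. With 1 array per group no test was run. The number of arrays limits the precision. Medians of lists cover measured genes, which include some measured on 1 array only.

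The members and lists were chosen with earlier results of these data known. Named are all members, all measured partners, T cell receptor inputs and interferon, receptor and JAK-STAT genes, up to 4 of the largest ratios per direction in each other list, the 2 nearest ratios per member other than Irf4 and all markers past the rule. Other genes, such as Tbx21, Prdm1, Myd88, Bst2, Psmb8, Cxcl10 and the markers that did not pass, were chosen after their values were seen. Alternatives were other fold, difference and floor values, median, quantile and loess scaling (lowess fraction 0.3), the mean over probe sets and leaving out shared probe sets. The code of the rule was run on simulated data with planted changes. The simulated spread was smaller than that between probe sets of a gene, so it gives no error rate for these arrays. Python 3.11.15, pandas 2.3.3 and statsmodels 0.14.6 were used.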

Additional observations from a re-analysis of the deposited data

How the results depend on the processing

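None of the 7 measured members changed sign under the 9 alternatives that gave a ratio per gene (leaving out shared probe sets gave none), and all 7 measured members kept their calls with a difference minimum of 50, floors of 50 and 200, and median, quantile and loess scaling. With a fold minimum of 2 the family had 1 higher and 3 lower genes (Irf4, Irf1, Irf7 and Irf9), 2 higher and 3 lower probe sets, and the genes around it 25 lower, while all probe sets gave 2121 higher and 1750 lower. With a difference minimum of 200 the family had 1 higher gene and 2 higher probe sets, since Irf8 lost its call, and all probe sets gave 2454 lower. Without probe sets ending in _x_at, _s_at or _a_at the family had 0 lower probe sets, and 2635 of all remaining probe sets were higher. Fewer probe sets were tested in that setting, and the measured ones left out were higher in 27.9% of cases, against 19.4% for those kept. With the mean over probe sets Irf3 lost its call, in a mean that includes ratios bounded by the floor. Nfatc1 then reversed to a log2 ratio of 0.52, since its probe sets disagree. Of the other genes of the lists, markers included, 37 lost their call with a fold minimum of 2 and 12 with a difference minimum of 200. With a floor of 200, 6 of those still measured lost it. Ifngr2, Oasl1 and Lyz2 were under that floor on both arrays and could then not be called. The median log2 ratio of measured genes stayed between -0.01 and 0.03 under all floors and scalings. No paired analysis was possible because each group has 1 array. Irf5 and 3 of the 4 Irf3 probe sets are limited by signal near background.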
